A study of Mus musculus with 28 samples.

Results

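Ikzf1, Bcl11b, Gata3, Runx1, Tcf7, Lef1, Tal1, Ets1, Hhex and Zeb1 encode transcription factors of T-cell development, and their DNA copy number was followed here in 24 mouse tumours. These 10 genes are among 20665 autosomal protein-coding genes that were scored in the same way. They were chosen by name for their place in T-cell development and T-cell leukaemia, and located by their RefSeq spans on the mouse build GRCm38. The tumours came from mice whose germline Trp53, the gene of the tumour suppressor p53, had been altered, and the study set dimeric against monomeric p53. AD mice (p53 AD/-) made a dimeric form and RP mice (p53 RP/-) a monomeric form, each opposite a null allele, so no group had wild-type p53. The thymic lymphomas came from 7 AD and 7 RP mice and the sarcomas from 5 AD and 5 RP mice, all on a mixed BALB/C and C57BL6 background and collected at end point. Each tumour is 1 sample, and the age at collection is not given in the sources used here.

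A T cell arises in the thymus when a blood progenitor receives Notch signals and switches on a chain of transcription factors. Tcf7 and Gata3 act early in that chain, Bcl11b then seals commitment to the T-cell lineage, and Runx1, Ets1 and Ikzf1 work beside them through later stages. Several of these genes are known tumour suppressors of the lineage, and others, such as Tal1, are known for driving T-cell leukaemia when they are switched on at the wrong stage.

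The measurement was exome sequencing, in which captured coding regions are sequenced and the depth of each is set against a comparison DNA. The deposited segments give, for each stretch of a chromosome, a log2 copy ratio and the number of markers behind it, a marker being a captured target or window. On this scale 0 is no change, and -1 is what 1 copy against 2 gives when every cell carries the loss. Tumours are mixtures of cells, so a change in fewer cells and a smaller change in more cells cannot be told apart. A gene was called gained at 0.3 or above and lost at -0.3 or below. These calls were not centred on each tumour, whose length-weighted median over the autosomes ran from -0.25 to 0.00. That median was -0.25 in AD thymic lymphoma 7 and in RP thymic lymphoma 4, so losses called there can lie near the tumour's own median. A change was called focal when a segment shorter than 5 Mb overlapped the gene and lay at least 0.3 from the length-weighted median of that chromosome. A chromosome counted as wholly lost or wholly gained when 80% or more of the length in segments was past that cutoff.

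The labelled tissue was checked on the T-cell receptor genes, which T cells cut and rejoin. The alpha locus was at -0.3 or below in 14 of 14 thymic lymphomas, with a median of -1.34, against 0 of 10 sarcomas, with a median of 0.09. The beta locus was so in 13 of 14 thymic lymphomas, against 0 of 10 sarcomas. Averaged over the gene, Trp53 itself was called lost in 0 of the 24 tumours and gained in 1 RP thymic lymphoma. A 5-marker segment at Trp53, from 69586890 to 69588625 on chromosome 11, stood apart in several tumours. It was at -0.31 in AD thymic lymphoma 5, -0.33 in RP thymic lymphoma 1, 0.68 in RP thymic lymphoma 5 and 0.63 in RP thymic lymphoma 7. In AD sarcoma 1 a 3-marker segment there was at -0.32, so the average over the gene does not show short changes. Tumours had 59 to 517 segments of at least 2 markers, and read depth is unknown. AD thymic lymphomas 6 and 7 stood apart, with 93 and 169 short losses, against 11 to 37 in the other thymic lymphomas and 1 to 13 in the sarcomas. Short losses are autosomal segments at -0.3 or below with few markers, and their length limit is far under the 5 Mb of focal changes.

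Ikzf1 and Bcl11b are the members at which short segments were looked for most closely, and their promoters are printed because segment ends fell beside them. Each line gives 250 bases before a RefSeq transcript start in lower case and 50 bases from that start on in capitals, from RefSeq on GRCm38.p6. The Ikzf1 windows lie at chr11:11685675-11685974 and chr11:11689927-11690226 on the plus strand, and the Bcl11b window at chr12:108003365-108003664 on the minus strand.
Ikzf1 promoter A: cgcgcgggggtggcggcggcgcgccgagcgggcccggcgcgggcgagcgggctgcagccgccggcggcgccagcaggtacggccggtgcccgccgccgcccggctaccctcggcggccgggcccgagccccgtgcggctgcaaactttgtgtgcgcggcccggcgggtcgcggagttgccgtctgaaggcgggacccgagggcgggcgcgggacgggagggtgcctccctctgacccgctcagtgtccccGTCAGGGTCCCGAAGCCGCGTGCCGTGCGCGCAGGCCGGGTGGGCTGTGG
Ikzf1 promoter B: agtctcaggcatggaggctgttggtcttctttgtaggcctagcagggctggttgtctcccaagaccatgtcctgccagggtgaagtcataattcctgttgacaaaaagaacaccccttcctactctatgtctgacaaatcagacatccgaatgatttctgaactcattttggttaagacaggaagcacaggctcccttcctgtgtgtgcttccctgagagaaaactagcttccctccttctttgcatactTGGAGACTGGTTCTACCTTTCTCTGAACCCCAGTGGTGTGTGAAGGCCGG
Bcl11b promoter: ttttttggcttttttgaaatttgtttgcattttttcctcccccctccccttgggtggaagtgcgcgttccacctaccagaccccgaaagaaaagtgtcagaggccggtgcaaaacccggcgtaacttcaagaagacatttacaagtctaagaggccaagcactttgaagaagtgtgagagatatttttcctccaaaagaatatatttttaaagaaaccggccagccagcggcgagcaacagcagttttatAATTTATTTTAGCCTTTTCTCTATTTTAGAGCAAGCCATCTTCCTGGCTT
The bases of Ikzf1 promoter A were 81.3% G or C, which is above 99.3% of the 32851 RefSeq promoter windows, against a median of 52.7%. Ikzf1 promoter B had 49% and the Bcl11b promoter 43%. Of the 10 genes, 8 had promoter windows in that table.

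Ikzf1 encodes Ikaros, a zinc finger factor that restrains T-cell precursors, and in mouse T-cell tumours deletions inside the gene are known to leave shortened proteins. It spans chromosome 11 from 11684962 to 11772930. It was the member with the most focal losses, 2 among the 14 thymic lymphomas, each in an RP tumour. Of all genes, 1.96% had a focal loss in at least 2 thymic lymphomas and 0.881% in at least 2 of the 7 RP thymic lymphomas.

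In RP thymic lymphoma 3 a segment of 83.7 kb with 10 markers, from 11685139 to 11768880, stood at a log2 copy ratio of -0.59, which is a ratio of 0.666. The segments on either side were at -0.00 and -0.01. Ikzf1 was the only protein-coding gene that the segment overlapped, and both printed Ikzf1 promoters lie within it. The nearest markers outside it ended at 11624642 and began at 11801001, so the loss could reach up to 60.3 kb beyond one end of the gene and 28.1 kb beyond the other.

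In RP thymic lymphoma 5 the short segment was smaller still. It ran for 4.19 kb, from 11754006 to 11758194, with 2 markers at -0.71, between segments at 0.14 and 0.13. It lies 68.1 to 72.3 kb downstream of the transcript start that follows promoter A, so both promoters are outside it. The value over the whole gene remained 0.09 in this tumour, and the gene was not called lost. At Ikzf1 these 2 tumours each had a segment at least 0.3 from the chromosome median with both ends inside the gene. Such a segment was found in at least 2 thymic lymphomas at 0.232% of all genes. The ends of the larger Ikzf1 segment are its outermost markers, and the gaps beyond them reach past the gene. A loss larger than the gene would therefore be counted in the same way. The count was also added after seeing the data, so this share is no test of Ikzf1.

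**Figure D1:**
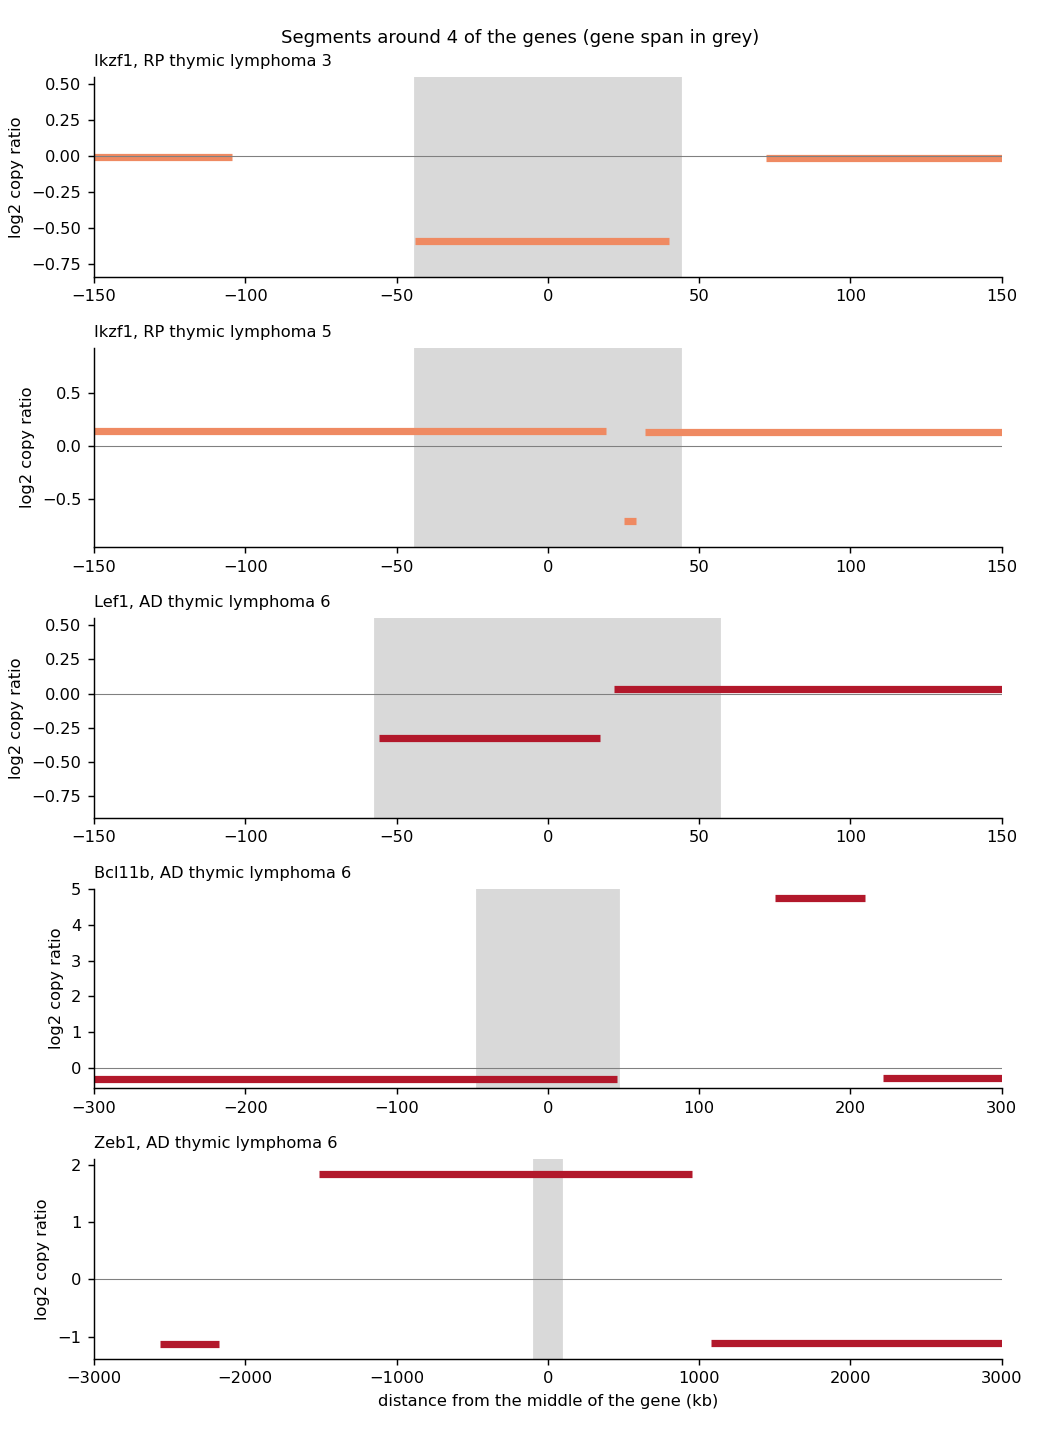
Log2 copy ratio of the deposited segments (bars) against the distance in kb from the middle of the gene, with the gene in grey, for Ikzf1 in RP thymic lymphomas 3 and 5 and for Lef1, Bcl11b and Zeb1 in AD thymic lymphoma 6. The segment of -0.59 covers nearly all of Ikzf1 in RP thymic lymphoma 3, the segment of -0.71 covers a small piece of it in RP thymic lymphoma 5, and the segment of 4.76 lies beside Bcl11b and not on it.

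Elsewhere Ikzf1 moved with its chromosome. Over the whole gene it ran from -0.10 to 0.20 in AD thymic lymphomas, with a median of 0.13. In RP thymic lymphomas its range was -0.59 to 0.29, with a median of -0.23. Values in AD sarcomas were 0.08, 0.19, 0.00, 0.12 and 0.03, and the RP sarcomas had 0.10, 0.10, 0.16, 0.04 and 0.01. The lymphoma groups overlapped, and 4 of the 7 RP thymic lymphomas were below 0 against 2 of the 7 AD ones. The mean difference of AD and RP thymic lymphomas was 0.21 (0.09 ± 0.12 against -0.12 ± 0.30, SD, n = 7 each), which did not pass the exact permutation test (p = 0.103, adjusted p = 0.545). Without RP thymic lymphoma 3, which holds the larger focal loss, the difference was 0.13. The count of focal losses, 0 of 7 AD against 2 of 7 RP thymic lymphomas, did not pass either (two-sided Fisher's exact p = 0.462, adjusted p = 1), nor did 2 of 14 thymic lymphomas against 0 of 10 sarcomas (two-sided Fisher's exact p = 0.493, adjusted p = 1).

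Bcl11b encodes a zinc finger factor needed for T-cell commitment and known as a tumour suppressor of the thymus. It spans chromosome 12 from 107910403 to 108004145. No segment shorter than 5 Mb overlapped it in any of the 24 tumours, and the shortest that did was 7.78 Mb long. Its log2 copy ratio ran from -0.31 to 0.23 among AD thymic lymphomas, with a median of -0.06, and from -0.32 to 0.16 in RP thymic lymphomas, with a median of -0.09. It stood in AD sarcomas at -0.18, -0.20, -0.31, -0.20 and -0.03, and the RP sarcomas had -0.05, -0.21, -0.07, -0.10 and -0.03. All groups overlapped. The gene was called lost in AD thymic lymphoma 6, RP thymic lymphoma 2 and AD sarcoma 3, each time at a value within 0.1 of the chromosome median.

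AD thymic lymphoma 6 had a segment end inside Bcl11b. Its segment of -0.31 ended at 108003085, 0.329 kb inside the transcript start, and the next marker began at 108107231. From there to 108167272 lay a 14-marker segment at 4.76, which overlapped Setd3, a histidine methyltransferase gene, and no other protein-coding gene. Past 108179152 the value was -0.26. The Bcl11b promoter lies in the gap of 104 kb without markers, so its own copy number was not measured. In the other 23 tumours the stretch with the high segment ran between -0.32 and 0.23. A segment end fell inside Bcl11b in 1 tumour, and 8.33% of all genes had a segment end inside them in at least 1 of the 24.

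Tcf7 and Lef1 encode the HMG-box factors that read Wnt signals in early T cells, Tcf7 first and Lef1 later. Tcf7, on chromosome 11 from 52246527 to 52283383, lay in segments of at least 37.4 Mb in every tumour. It ran from -0.10 to 0.20 among AD thymic lymphomas, from -0.27 to 0.29 in RP thymic lymphomas, from 0.01 to 0.19 in AD sarcomas and from 0.01 to 0.16 in RP sarcomas, and it was called gained or lost in 0 tumours. It shares chromosome 11 with Ikzf1, and the genes were within 0.01 of each other in 21 of the 24 tumours. The tumours where they parted more were RP thymic lymphomas 2, 3 and 5.

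Lef1 lies on chromosome 3 from 131110297 to 131224357. Its value was under 0 in all 14 thymic lymphomas, but 9 of the 10 sarcomas had such a value too. No share over all genes is given for that count. These values are not centred, and each thymic lymphoma had a negative tumour median. In AD thymic lymphoma 5 Lef1, at -0.08, was above the tumour median of -0.09. Lef1 ran from -0.33 to -0.08 among AD thymic lymphomas, with a median of -0.21. In RP thymic lymphomas its range was -0.41 to -0.13, with a median of -0.31. AD sarcomas had -0.12, -0.20, -0.17, 0.00 and -0.03, and the RP sarcomas had -0.16, -0.17, -0.02, -0.09 and -0.03. It was called lost in 6 thymic lymphomas, 2 AD and 4 RP, against 0 sarcomas. In each of the 6 the whole of chromosome 3 was called lost. Of these, AD thymic lymphoma 7 (-0.33) and RP thymic lymphoma 4 (-0.31) each had a tumour median of -0.25. Of all genes, 17.0% were lost in at least 6 thymic lymphomas.

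Lef1 also held a short segment in AD thymic lymphoma 6. It ran for 73.2 kb, from 131111471 to 131184642, with 5 markers at -0.32, between segments at 0.04 and 0.03, and Lef1 was the only protein-coding gene in it. The gap without markers before it was 382 kb, and in AD sarcoma 2 a segment of 28.8 Mb at -0.20 began at the same marker. AD thymic lymphoma 6 had 93 short losses, a count from which the Lef1 segment of 73.2 kb is left out by its length. Of all genes, 6.15% had a focal loss in at least 1 AD thymic lymphoma.

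Gata3 encodes a zinc finger factor that T-cell commitment and helper T cells need. On chromosome 2, from 9857078 to 9887953, it ran from -0.28 to 0.17 among AD thymic lymphomas, from -0.32 to 0.21 in RP thymic lymphomas, from -0.15 to 0.01 in AD sarcomas and from -0.11 to -0.02 in RP sarcomas. It was called lost in RP thymic lymphoma 4 only, at -0.32 against a chromosome median of -0.30 and a tumour median of -0.25. Its shortest segment was 10.4 Mb long.

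Runx1 encodes the DNA-binding part of core-binding factor, which blood stem cells and thymocytes need. On chromosome 16, from 92601466 to 92826074, it ran from -0.30 to 0.63 among AD thymic lymphomas, from -0.31 to 0.17 in RP thymic lymphomas, from -0.02 to 0.17 in AD sarcomas and from -0.36 to 0.00 in RP sarcomas. The whole of chromosome 16 was gained in AD thymic lymphoma 6 and lost in AD thymic lymphoma 7 and RP thymic lymphoma 5. In AD thymic lymphoma 7 Runx1 was at -0.30 against a tumour median of -0.25. AD thymic lymphoma 4 held the highest value, 0.63, in a segment of 4.49 Mb with 480 markers. That segment was 0.22 above the chromosome median of 0.41, short of the focal threshold, and chromosome 16 was broken there into 26 segments between -1.18 and 1.22.

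Ets1, the founding member of the ETS factors and active in mature thymocytes, spans chromosome 9 from 32636241 to 32757820. It ran from -0.11 to 0.26 among AD thymic lymphomas, from -0.28 to 0.45 in RP thymic lymphomas, from -0.10 to 0.01 in AD sarcomas and from -0.10 to 0.01 in RP sarcomas. It was called gained in RP thymic lymphomas 6 and 7. The gain in RP thymic lymphoma 6 covered the whole chromosome, at 0.39. In RP thymic lymphoma 7 it covered 29.7 Mb up to position 32754212, at 0.45 against a chromosome median of -0.28. Past a 2-marker segment at -0.35, the stretch from 34489103 to 42808492 (8.32 Mb, 735 markers) stood at 0.40. The gain therefore went on beyond Ets1.

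A segment end at 32754212, inside Ets1, recurred in 3 tumours, AD thymic lymphoma 4, AD thymic lymphoma 5 and RP thymic lymphoma 7. The next marker lies 974 kb further on and opened a segment of 2 or 3 markers in each, at -1.16, 1.39 and -0.35. Of all genes, 0.963% had a segment end inside them in at least 3 of the 24 tumours. The position of the end is therefore known to within 974 kb only.

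Hhex encodes a homeobox factor of blood progenitors, known as an oncogene in T-cell leukaemia of mice. It spans chromosome 19 from 37434841 to 37440731. All 14 thymic lymphomas had Hhex under 0, but so did 8 of the 10 sarcomas. No share over all genes is given for that count. These values are not centred, and in AD thymic lymphoma 3 Hhex was equal to the tumour median of -0.06. Hhex ran from -0.66 to -0.06 among AD thymic lymphomas, with a median of -0.29. In RP thymic lymphomas its range was -0.54 to -0.12, with a median of -0.35. Among the sarcomas, the AD ones had -0.15, -0.06, -0.13, -0.11 and 0.05, and the RP sarcomas had 0.04, -0.19, -0.12, -0.13 and -0.01. Calls of loss were made in 8 thymic lymphomas, 3 AD and 5 RP, and in 0 sarcomas, each time with the whole of chromosome 19. Of these, RP thymic lymphoma 4 (-0.31) had a tumour median of -0.25. Of all genes, 8.96% were lost in at least 8 thymic lymphomas.

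Beside Hhex lay a 26-marker stretch over Ide and Kif11, from 37270741 to 37376593. It parted from the chromosome in AD sarcomas 1 and 2, upward, and in RP sarcomas 1, 4 and 5, downward. It had 0.45, 0.36, -0.13, -0.11 and 0.05 in AD sarcomas, against -0.53, -0.19, -0.12, -0.76 and -0.60 in RP sarcomas, and the groups overlapped. Hhex itself is outside the stretch, and in thymic lymphomas the stretch had the value of Hhex. The mice were of mixed background and the comparison DNA is not given, and the source of these values was not tested.

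Tal1 encodes a helix-loop-helix factor of blood stem cells that thymocytes normally switch off, and its ectopic activity is a known cause of T-cell leukaemia. It spans chromosome 4 from 115056426 to 115071755. Its AD thymic lymphomas ran from -0.07 to 0.45, with a median of 0.22, and its RP thymic lymphomas from 0.15 to 0.44, with a median of 0.33. The AD sarcomas had -0.02, 0.04, 0.10, -0.05 and 0.04, and the RP sarcomas had 0.00, -0.09, 0.00, -0.03 and -0.10. Every RP thymic lymphoma was above every sarcoma, and AD thymic lymphoma 1, at -0.07, was the only thymic lymphoma below 0. Tal1 was called gained in 7 thymic lymphomas, 3 AD and 4 RP, against 0 sarcomas. The whole of chromosome 4 was gained in 6 of them, and in AD thymic lymphoma 5 a large part of it. Gains in at least 7 thymic lymphomas were found at 5.91% of all genes.

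In human T-cell leukaemia a small deletion between STIL and TAL1 is a well known way of switching TAL1 on. No segment ended within the span from Stil to Tal1, 115000108 to 115071755, in any of the 24 tumours. Short segments held Tal1 in AD thymic lymphoma 7 (2.71 Mb, 543 markers, 0.22) and RP thymic lymphoma 1 (0.922 Mb, 79 markers, 0.33). Neither was 0.3 from its chromosome median. A segment that held Tal1 began at the same marker, 114406817, in 5 thymic lymphomas. In each of them the segment before it ended at 114244545 and was lower, at -0.36 to -0.05. The mice were of mixed background, and the source of this shared start was not tested.

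Zeb1 encodes a zinc finger and homeodomain repressor that thymocytes need and that is known as a tumour suppressor in T-cell lymphoma. It spans chromosome 18 from 5591327 to 5775468. It ran from -0.53 to 1.85 among AD thymic lymphomas, with a median of -0.20, and from -0.47 to 0.21 in RP thymic lymphomas, with a median of -0.37. The AD sarcomas had -0.17, -0.22, -0.27, -0.22 and -0.05, and the RP sarcomas had -0.15, -0.22, -0.07, -0.12 and -0.05. It was called lost in 7 thymic lymphomas, 3 AD and 4 RP, against 0 sarcomas, each time with the whole of chromosome 18. Of these, AD thymic lymphoma 7 (-0.31) had a tumour median of -0.25. Losses in at least 7 thymic lymphomas were found at 10.4% of all genes.

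AD thymic lymphoma 6 went the other way, with the only focal gain among the members. A segment of 2.47 Mb with 148 markers, from 4168521 to 6638598, stood at 1.85, a copy ratio of 3.60, between segments at -1.14 and -1.11. The chromosome median there was -0.54. The segment overlapped 12 protein-coding genes, among them Map3k8, a kinase of the NF-kappaB and MAP kinase pathways, Epc1, a chromatin regulator, and Kif5b, a microtubule motor. Of all genes, 4.55% had a focal gain in at least 1 thymic lymphoma. In RP thymic lymphoma 4 Zeb1 was at 0.21, in a segment of 6.09 Mb against a chromosome median of -0.25.

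**Figure D2:**
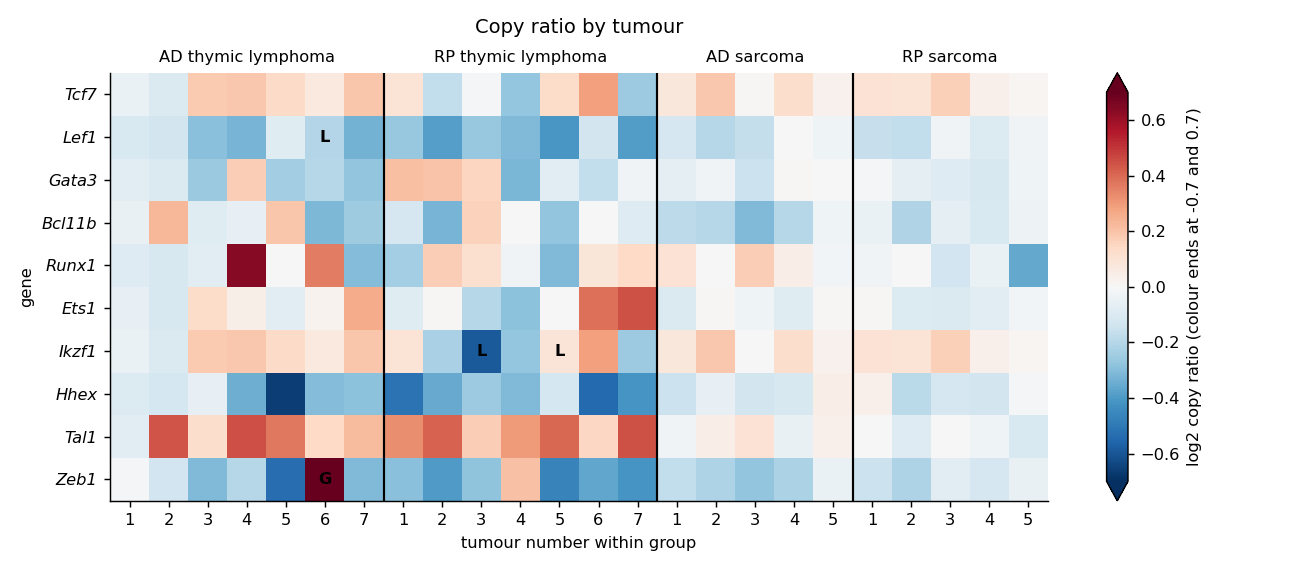
Log2 copy ratio (colour) of the 10 genes (rows) in the 24 tumours (columns, by group), with L for a focal loss and G for a focal gain. The L marks are at Ikzf1 in RP thymic lymphomas 3 and 5 and at Lef1 in AD thymic lymphoma 6, the G mark is at Zeb1 in AD thymic lymphoma 6, and the sarcoma columns hold none.

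Over the 10 genes and 24 tumours there were 240 gene and tumour pairs, of which 29 were called lost and 12 gained. These calls are not centred on each tumour's median. Whole-chromosome change accounted for 25 of the losses and 8 of the gains, focal segments for 1 and 1, and the remaining 3 and 3 were neither focal nor of a whole chromosome. Of these, Runx1 in AD thymic lymphoma 4 lay in the 4.49 Mb segment of the broken chromosome 16. In thymic lymphomas 27 of 140 pairs were lost (19.3%, against 18% over all genes) and 12 gained (8.57%, against 10.4% over all genes). In sarcomas 2 of 100 pairs were lost (2%, against 0.714% over all genes) and 0 gained (0%, against 1.83% over all genes). Losses took 10 of 70 pairs in AD thymic lymphomas (14.3%, against 13.2% over all genes) and 17 of 70 in RP ones (24.3%, against 22.9% over all genes), so both shares were near those of the genome. Gains took 6 of 70 pairs in each (8.57%, against 10.3% over all genes in AD and 10.5% in RP thymic lymphomas).

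Focal losses touched 2 of the 10 genes in at least 1 thymic lymphoma, against 7.18% of all genes, and a focal gain touched 1. In sarcomas focal losses touched 0 of the 10, against 0.91% of all genes, and focal gains 0, against 2.07%. By Fisher's exact test of focal losses 0 of the 10 genes differed between thymic lymphomas and sarcomas, where 0.0387% of all genes did. Between AD and RP thymic lymphomas 0 differed, where 0.0% of all genes did. No member had more than 2 focal losses. Counts that small cannot reach a p under 0.05 in this test, so it could not have called any member.

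The genes lay close to their chromosomes. Of the 240 pairs 228 (95%) were within 0.1 of the chromosome median, against 95.8% over all genes. A single segment covered the gene in 238 pairs.

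**Figure D3:**
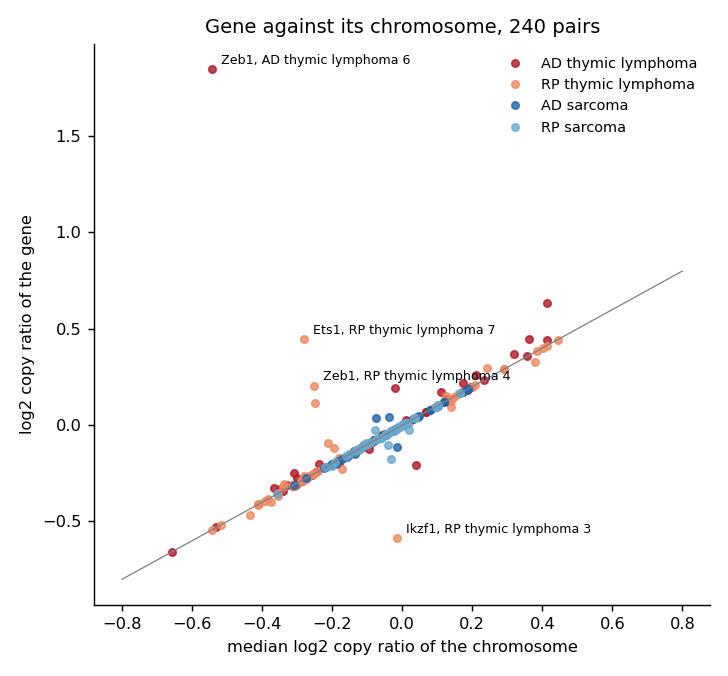
Log2 copy ratio of each gene (vertical axis) against the median of its chromosome (horizontal axis) for 240 pairs of gene and tumour, coloured by group, with the line of equality. Of the pairs 228 lie within 0.1 of the line, and Zeb1 in AD thymic lymphoma 6 (1.85), Ikzf1 in RP thymic lymphoma 3 (-0.59), Ets1 in RP thymic lymphoma 7 (0.45) and Zeb1 in RP thymic lymphoma 4 (0.21) stand off it.

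Thymic lymphomas and sarcomas were compared by exact permutation within genotype, with Benjamini-Hochberg adjustment over all 20665 genes. Tal1 was higher in thymic lymphomas, and Hhex and Lef1 were lower. Tal1 averaged 0.28 ± 0.16 in thymic lymphomas and -0.01 ± 0.06 in sarcomas (SD, n = 14 and 10), a difference of 0.29 (permutation test, adjusted p = 0.000323). Hhex averaged -0.31 ± 0.18 and -0.08 ± 0.08, a difference of -0.23 (permutation test, adjusted p = 0.00237). Lef1 averaged -0.26 ± 0.11 and -0.10 ± 0.08, a difference of -0.16 (permutation test, adjusted p = 0.00374).

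These are 3 of 10 genes, 1 higher and 2 lower, where 39.7% of all genes were called, 5.69% higher and 34.0% lower. Genes on 1 chromosome often share segments, and the 20665 genes held 2090 distinct profiles. The median difference was 0.01 over the 10 genes and -0.04 over all genes. The other 7 did not pass, with differences from -0.10 for Ikzf1 to 0.08 for Ets1. The Zeb1 difference of 0.04 turned to -0.11 without AD thymic lymphoma 6. When each tumour was centred on its own median, Tal1 alone passed, while Hhex (-0.14, adjusted p = 0.0573) and Lef1 (-0.07, adjusted p = 0.163) did not, and 29.0% of all genes were called, 13.8% higher and 15.2% lower. That centring moved the share of higher ones among all called genes to 47.5%, against 14.3% before.

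**Figure D4:**
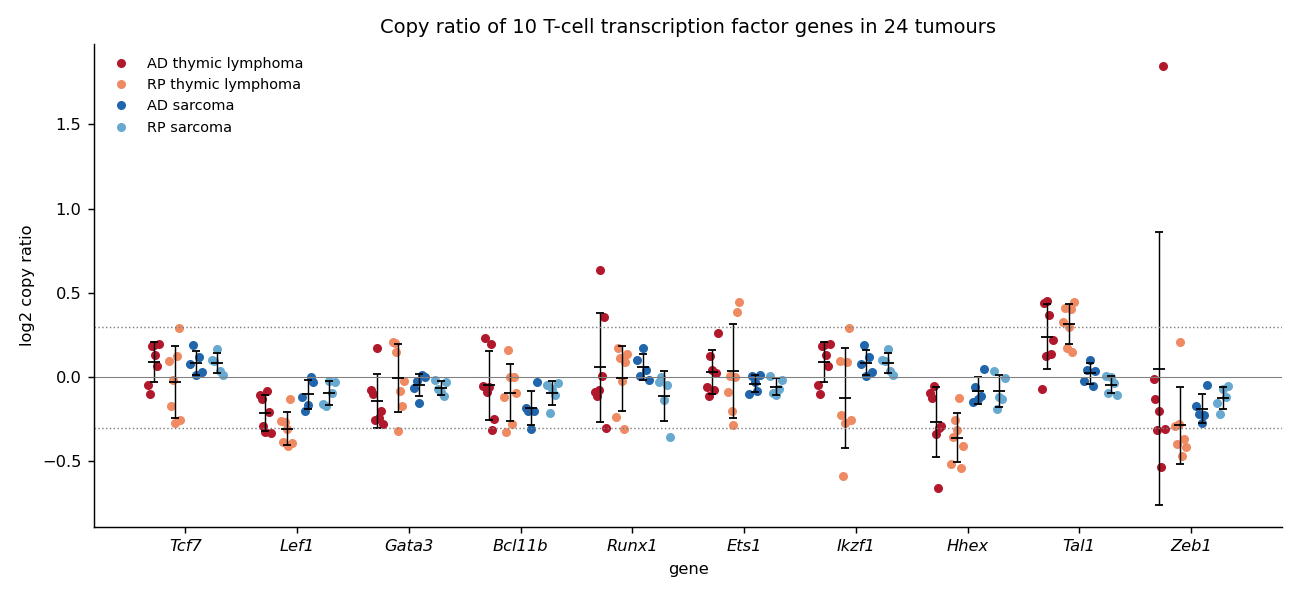
Log2 copy ratio (vertical axis) of each gene in each tumour (points), with the mean and SD of each group (black bars) and dotted lines at -0.3 and 0.3. Tal1 lies high and Hhex and Lef1 low in both thymic lymphoma groups, and Zeb1 in AD thymic lymphoma 6 stands alone at 1.85.

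Once the chromosome median was subtracted, 0 of the 10 genes passed, and 0.0387% of all genes did. Tal1, Hhex and Lef1 then differed by -0.0037, -0.0012 and 0.013. The long segment that holds a gene often sets its chromosome median, so values near 0 after the subtraction are partly built in. The smallest p among the members was that of Bcl11b, which differed by 0.04 (permutation test, p = 0.0117, adjusted p = 0.304). Autosomal marker totals were 204845 to 204922 in thymic lymphomas and 205073 to 205076 in sarcomas. Whether these groups differed in processing or comparison DNA is not given, and either could not be told apart from tumour type.

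**Figure D5:**
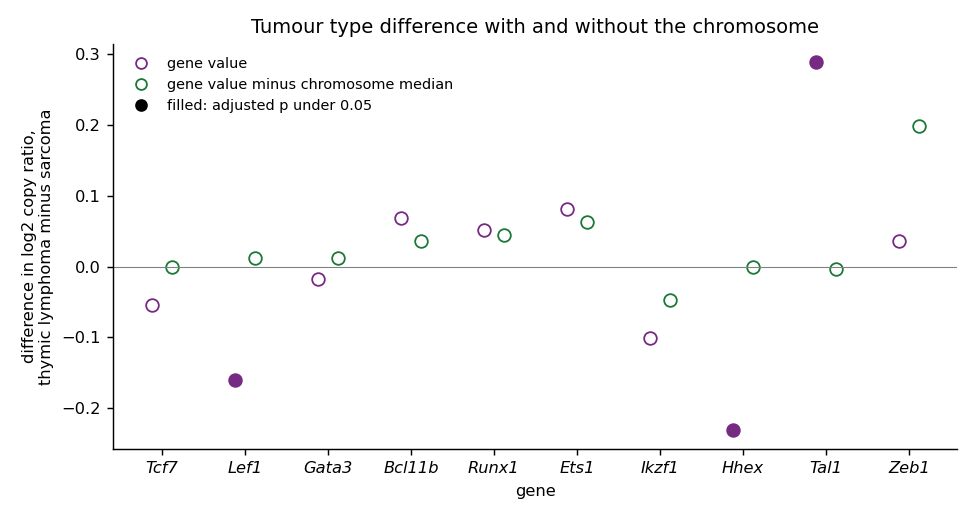
Difference in mean log2 copy ratio, thymic lymphoma minus sarcoma, for each gene as measured (purple) and after subtracting the chromosome median (green), filled where the adjusted p was under 0.05. Tal1 (0.29), Hhex (-0.23) and Lef1 (-0.16) are filled as measured and lie at -0.0037, -0.0012 and 0.013 after the subtraction. A gene's own long segment often sets the median that is subtracted.

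A list of 58 other T-cell transcription factors, with no member in it, was read the same way. In thymic lymphomas 3 were higher and 21 lower than in sarcomas, where 5.69% of all genes were higher and 34.0% lower, and the median difference was -0.05, against -0.04 over all genes. With each tumour centred on its median 6 were higher and 7 lower, where 13.8% and 15.2% of all genes were, and the list's median was 0.04. The genes named next have values without that centring. The 3 higher ones, Tox, Zbtb17 and Runx3, are on chromosome 4 like Tal1 and differed by 0.29, 0.30 and 0.29. Tox drives thymocyte development, Zbtb17 is the Myc partner Miz-1, and Runx3 is the Runx factor of cytotoxic T cells. Among the lower ones the smallest adjusted p values belonged to genes of chromosomes 7, 6 and 13. Relb, an NF-kappaB subunit, averaged -0.19 ± 0.10 in thymic lymphomas and 0.15 ± 0.13 in sarcomas (permutation test, adjusted p = 0.000123). Lmo1, a LIM-only oncogene of T-cell leukaemia, and Ikzf5, a relative of Ikaros, lie on chromosome 7 too and differed by -0.36 and -0.37. Gata2, Hoxa9 and Hoxa10, factors of early blood cells on chromosome 6, differed by -0.24 each. Mef2c, a factor of lymphoid progenitors on chromosome 13, differed by -0.33. Focal losses were found at Id3 and Egr2 in 1 thymic lymphoma each, 2 of 58 against 7.18% of all genes. Focal gains were found at Zbtb16 and Elf1 in 1 thymic lymphoma each (4.55% of all genes), at Hes1 in 2 sarcomas and at Egr3 in 1 sarcoma (2.07% of all genes), and 0 of the 58 had a focal loss or gain in 3 or more tumours.

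AD and RP tumours were compared within each tumour type. In thymic lymphomas 0 of the 10 genes passed, where 0.0% of all genes did. At an unadjusted p under 0.05 the count was again 0 of 10, against 8.55% of all genes. Autosomal marker totals were 204845 to 204849 in AD and 204917 to 204922 in RP thymic lymphomas. The ranges do not overlap. Whether these groups differed in processing or comparison DNA is not given, and either could not be told apart from genotype. Lef1 averaged -0.21 ± 0.11 in AD and -0.31 ± 0.10 in RP thymic lymphomas (n = 7 each, exact permutation p = 0.105, adjusted p = 0.545). Gata3 averaged -0.14 ± 0.16 and -0.00 ± 0.20 (exact permutation p = 0.181, adjusted p = 0.586). Tal1 averaged 0.24 ± 0.19 and 0.31 ± 0.12 (exact permutation p = 0.392, adjusted p = 0.602).

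In sarcomas 0 of the 10 genes passed, where 0.0% of all genes did, and the smallest p that 5 against 5 tumours allow is 0.00794. Runx1 averaged 0.06 ± 0.08 in AD sarcomas and -0.11 ± 0.15 in RP sarcomas, a difference of 0.17 (exact permutation p = 0.0159, adjusted p = 0.557). The AD sarcomas had 0.10, 0.00, 0.17, 0.04 and -0.02, and the RP sarcomas had -0.03, 0.00, -0.13, -0.05 and -0.36, so the groups overlapped. Without RP sarcoma 5, where Runx1 was called lost in a segment of 65.8 Mb, the difference was 0.11. Unadjusted, 1 of 10 genes was under 0.05, against 5.07% of all genes. Autosomal marker totals were 205075 to 205076 in AD and 205073 to 205074 in RP sarcomas, a small gap. Whether these groups differed in processing or comparison DNA is not given, and either could not be told apart from genotype. The AD minus RP difference was also set against tumour type in an interaction test, by permuting genotype within each tumour type. Its null is therefore no genotype difference in either tumour type, which is stricter than equal differences. In it 0 of the 10 genes passed, where 0.0% of all genes did, and the smallest adjusted p among them was 0.631.

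Genes on other chromosomes whose values over the 24 tumours were most like those of Ikzf1 were Nlrp4g, Hmgxb4 and Arid1b, with mean absolute differences of 0.103, 0.133 and 0.148 in log2 copy ratio. For Bcl11b they were Anapc16, Matr3 and Adh5, at 0.128, 0.141 and 0.141. Each is on a chromosome of its own, and they share the tumours only.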

How the data were processed

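Exome DNA of 24 tumours was analysed, and 4 ear samples, labelled as normal controls, were not analysed here. Per the submitters' processing notes, the tools include BWA 0.7.17, Trim Galore 0.6.5 and GATK 4.1.0.0, and the build is GRCm38. Per the file headers, each deposited segment has a segment mean, taken as a log2 ratio from its values, and a number of markers, which is not a read count. The log base, the comparison DNA, segmentation settings and centring are each not given in the sources used here. Depth is unknown, so the spread between tumours is the only error.

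A gene took the overlap-weighted mean of its segments, with RefSeq GRCm38.p6 spans, which hold no exons. Means were compared by two-sided exact permutation over 627264 splits within genotype (thymic lymphoma against sarcoma), 3432 (AD against RP thymic lymphoma) or 252 (sarcoma), and focal counts by Fisher's exact test, both with Benjamini-Hochberg adjustment over all genes. Tools were Python 3.11.15, numpy 2.4.6, pandas 2.3.3, R 4.3.3 and limma 3.58.1. The Python functions were tested on simulated or made-up data, and limma was not. Alternatives changed centring, test, segment filter, focal thresholds and tumours. Of the 58 other factors, at most the 10 with the smallest adjusted p were named, besides any with a focal change in at least 3 tumours. Most alike means the smallest mean absolute log2 difference. The members and lists were chosen with earlier results of these data known, and subtracting the chromosome median, centring the list of 58, the interaction test and the counts of segment ends were added after seeing the data. Replicate numbers only name tumours.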

Additional observations from a re-analysis of the deposited data

Results flagged for a closer look

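Within each of the 4 groups the highest and lowest tumour of each gene were set against the rest by Dixon's criterion, which flags about 1 in 20 groups by chance. Of 40 sets of 1 gene in 1 group, 2 were flagged, both at Zeb1. AD thymic lymphoma 6 had Zeb1 at 1.85, against -0.53 to -0.01 in the other 6 AD thymic lymphomas. RP thymic lymphoma 4 had Zeb1 at 0.21, against -0.47 to -0.28 in the other 6 RP thymic lymphomas.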

How the results depend on the processing

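The count of members called between thymic lymphomas and sarcomas was 3 with limma, without segments of under 10 markers, without AD thymic lymphomas 6 and 7, and without any single tumour (lowest 3, highest 3). It was 1 with each tumour centred on its median and 0 with the chromosome median subtracted. The counts between AD and RP thymic lymphomas and between AD and RP sarcomas were 0 under every alternative run (leave-one-out lowest 0, highest 0).

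Focal losses at members numbered 3 in thymic lymphomas and 0 in sarcomas, and 1 in AD against 2 in RP thymic lymphomas. With segments of at least 10 markers the total was 1, with 0 in AD and 1 in RP thymic lymphomas, because the Lef1 segment has 5 markers and the smaller Ikzf1 segment 2. AD thymic lymphomas had 0 at 0.5 below the chromosome median and 0 without AD thymic lymphomas 6 and 7. Leaving out each tumour gave 2 to 3 in thymic lymphomas, 0 to 1 in AD (0 without AD thymic lymphoma 6) and 1 to 2 in RP ones (1 without RP thymic lymphoma 3 or 5). Under 10 Mb, Zeb1 in RP thymic lymphoma 4 became a second focal gain, and at 0.2 Runx1 in AD thymic lymphoma 4. Pairs on wholly changed chromosomes numbered 34, and 63 with a gain or loss called at 0.2.

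Differences of members that turned in sign were all short of the threshold after the change. Between thymic lymphomas and sarcomas, centring gave Gata3 0.071 and Tcf7 0.035, and leaving out AD thymic lymphomas 6 and 7 gave Gata3 0.0096 and Zeb1 -0.11. Subtracting the chromosome median gave Gata3 0.012, Lef1 0.013 and Tal1 -0.0037 there. It gave Gata3 0.015, Runx1 -0.024, Lef1 -0.030, Tal1 0.032 and Hhex -0.0038 for AD against RP thymic lymphomas. For AD against RP sarcomas it gave Ikzf1 -0.0012, Bcl11b 0.0034, Lef1 0.0021, Hhex -0.0043 and Zeb1 0.001. Leaving out each tumour moved Gata3 from -0.040 to 0.0007 and Zeb1 from -0.11 to 0.068 between tumour types. Between AD and RP thymic lymphomas it moved Bcl11b from -0.002 to 0.089, Runx1 from -0.030 to 0.13 and Ets1 from -0.063 to 0.059. Between AD and RP sarcomas it moved Ikzf1 from -0.023 to 0.023, Tcf7 from -0.022 to 0.025, Lef1 from -0.032 to 0.019 and Hhex from -0.029 to 0.032. The causes were not tested.

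No paired analysis was possible because the mouse numbers in the labels are not shared between the tumour groups compared; ear samples of 4 of these mice were not analysed here. Short segments rest on few markers, and a marker gap hides changes within it.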
